A study of Mus musculus with 6 samples.

Results

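The eosinophil-associated ribonucleases and the angiogenins were followed in lung RNA of TSPO KO and WT mice. The 8 genes described are Ear1, Ear2, Ear10, Ang, Ang3, Ang4, Ang5 and Rnase4, out of 23473 genes in the count table. Each was taken by its gene name among the RefSeq transcripts, and where a gene had several transcripts the one with the largest total over the 6 libraries stood for it. Ang3 and Ang5 had identical counts in every library and are given as one, which leaves 7 separate sets of values. The transcripts were thus chosen by their total counts, which do not use the genotype. The list of genes was drawn up with earlier results of these data in view, so the pattern of the low-count genes below is a description and no test is used for it.

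The KO mice carried a global deletion of Tspo exons 2 and 3, made by crossing floxed mice with a Protamine-Cre line, whose Cre is driven by a sperm-specific promoter, and the WT mice had an intact gene. Both groups were C57BL/6, 6 to 8 weeks old and untreated, and whole lung was taken. Each genotype had 3 libraries, and each library was the RNA of 3 mice combined, so spreads and p-values are between pools and not between single mice. Levels are given as CPM, the counts of a gene relative to the scaled total of its library, after TMM scaling, which corrects for library composition.

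These genes encode small secreted enzymes of the RNase A superfamily. Ear proteins were named for their presence in eosinophil granules, and their human relatives are the eosinophil-derived neurotoxin and the eosinophil cationic protein. Mouse macrophages and monocytes also express Ear genes. Angiogenin cleaves tRNA in stressed cells and promotes the growth of blood vessels. Ang4 is best known as an antimicrobial protein of intestinal Paneth cells. Rnase4 is a ribonuclease that prefers uridine, and it shares its promoter and noncoding first exons with Ang. A cytosolic inhibitor, encoded by Rnh1, binds many of these enzymes tightly.

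All members with a known position lie on chromosome 14 (positions from RefSeq for GRCm38, the assembly of mm10). Ear1 lies at chr14:43818765-43819639 on the minus strand, Ear10 at chr14:43922898-43923596 on the minus strand, Ang5 at chr14:43957069-43963080 on the plus strand and Ear2 at chr14:44102654-44103531 on the plus strand. Ang spans chr14:51091077-51102009 and Rnase4 chr14:51091077-51106151, both on the plus strand with the same first base. Ang4 lies at chr14:51763892-51773590 on the minus strand. The RefSeq table used here did not place Ang3. In the matched transcripts of Ear1, Ear2, Ang, Ang4, Ang5 and Rnase4 the whole coding sequence sits in 1 of 2 exons. The matched transcript of Ear10 has 1 exon of 471 bases, of which 468 are coding. It is shorter than the RefSeq span given above, so it may lack noncoding bases of the gene.

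The Ear genes are near copies of each other, which bears on every count below. A stretch of 60 coding bases, Ear2 coding positions 272 to 331, is shown for the 3 members, with capitals where a base differs from Ear2.
Ear10, chr14:43923038-43923097, minus strand: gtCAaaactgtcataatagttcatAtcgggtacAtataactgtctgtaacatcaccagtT
Ear1, chr14:43819079-43819138, minus strand: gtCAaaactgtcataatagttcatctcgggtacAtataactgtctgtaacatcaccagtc
Ear2, chr14:44103158-44103217, plus strand: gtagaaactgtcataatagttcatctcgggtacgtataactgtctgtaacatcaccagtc
Ear10 differed from Ear2 at 5 of these 60 bases and Ear1 at 3. Over the whole coding sequence Ear2 and Ear10 were 97.0% identical, Ear1 and Ear2 95.3%, and Ear1 and Ear10 94.7%. The angiogenins were less alike, with 85.5% between Ang and Ang5, 85.1% between Ang and Ang4 and 88.3% between Ang4 and Ang5. Ang and Rnase4, which share a start, were 58.4% identical in their coding sequence.

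The bases before the starts of the Ear genes were also close copies. The 250 bases before each start are shown for members counted in every library and for members counted almost only in 1. In Ear10 and Ear1, capitals mark bases that differ from Ear2 or are inserted relative to it, and missing bases are not marked. The Ang5 bases and those shared by Ang and Rnase4 were not marked against Ear2, so their small letters do not mean identity.
Ear10, chr14:43923597-43923846, minus strand: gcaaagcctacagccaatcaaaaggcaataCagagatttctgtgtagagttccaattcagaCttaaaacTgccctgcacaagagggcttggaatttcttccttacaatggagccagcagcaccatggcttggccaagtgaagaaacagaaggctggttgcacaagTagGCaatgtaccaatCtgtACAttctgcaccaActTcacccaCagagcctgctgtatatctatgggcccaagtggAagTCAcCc
Ear1, chr14:43819640-43819889, minus strand: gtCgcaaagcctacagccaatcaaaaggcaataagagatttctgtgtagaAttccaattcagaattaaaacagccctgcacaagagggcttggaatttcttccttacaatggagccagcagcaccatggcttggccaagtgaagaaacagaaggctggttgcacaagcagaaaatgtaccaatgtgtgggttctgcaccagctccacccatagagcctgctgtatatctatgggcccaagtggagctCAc
Ear2, chr14:44102404-44102653, plus strand: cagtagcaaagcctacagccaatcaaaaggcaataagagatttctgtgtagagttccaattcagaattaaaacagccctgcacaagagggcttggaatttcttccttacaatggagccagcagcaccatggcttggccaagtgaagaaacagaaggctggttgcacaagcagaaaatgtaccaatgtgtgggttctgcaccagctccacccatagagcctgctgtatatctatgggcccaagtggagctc
Ang5, chr14:43956819-43957068, plus strand: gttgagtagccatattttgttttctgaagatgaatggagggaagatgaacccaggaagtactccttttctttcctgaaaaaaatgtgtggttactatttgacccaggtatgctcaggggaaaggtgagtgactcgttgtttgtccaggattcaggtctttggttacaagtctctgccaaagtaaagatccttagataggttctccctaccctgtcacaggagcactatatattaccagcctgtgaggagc
Ang and Rnase4, shared, chr14:51090827-51091076, plus strand: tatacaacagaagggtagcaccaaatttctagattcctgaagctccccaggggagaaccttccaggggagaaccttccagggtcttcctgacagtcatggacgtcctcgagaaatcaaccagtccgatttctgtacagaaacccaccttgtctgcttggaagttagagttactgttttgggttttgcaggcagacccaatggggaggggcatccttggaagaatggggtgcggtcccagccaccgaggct
The Ear1 bases were 98.4% identical to those of Ear2, and the Ear10 bases 92.8%. These are shares of the 250 bases and do not count gaps, unlike the coding values above, which do. The neighbouring Ang6 had the same 250 bases as Ang5, and Ang4 was 84.4% identical to Ang5, with 36 gap bases. The motif CCAAT, searched on both strands, had 3 matches in each of Ear10, Ear1 and Ear2 and 1 match before Ang and Rnase4. It had none before Ang5 or Ang4, and 33.8% of 32851 promoters of this length hold it. GGAAGT was found before Ear10, Ang5, Ang4 and the Ang and Rnase4 start, but these letters were not in the Ear1 or Ear2 window, against 19.7% of all promoters. TATAAA and AGATAA were also searched and had no match before any of these starts, and TGACTCA had a match before Ang4 only. These motifs were chosen after the sequences were seen, and a match is not a site.

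Reads were 50 bases long, so every 50-base window of each matched transcript was looked for in the transcripts of other genes (GENCODE M21). Windows were searched singly although the reads were paired, so the part of read pairs that fit several genes may be smaller. Of 664 windows of Ear1, 57.4% also occurred in another gene, most often in the pseudogene Ear-ps9 and in Ear2. The shared part was 56.2% of 422 windows for Ear10 and 41.5% of 670 windows for Ear2. It was 10.6% for Ang, 4.92% for Ang5, 4.75% for Rnase4 and 4.70% for Ang4. How the authors assigned reads that fit several genes is not given in the sources used here, so a count of an Ear gene may hold reads of another. Of the windows of Ear10, 185 were found in no other gene searched. Ang3, Ear3 and Ear12 were not among the transcripts searched, so windows shared with them are not counted, and Ang5 had the same counts as Ang3.

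**Figure D1:**
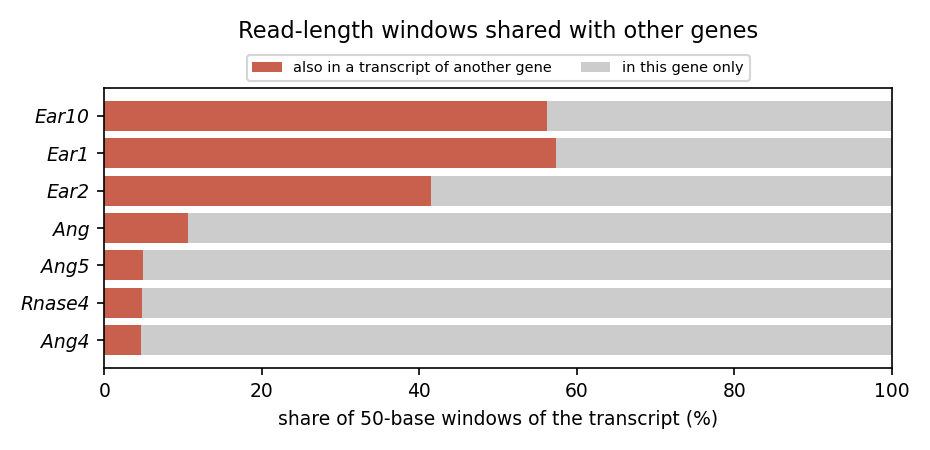
Share of the 50-base windows of each member's transcript (horizontal axis, percent) that also occur in a transcript of another gene (red) or in that gene only (grey), with Ang3, Ear3 and Ear12 not among the genes searched. More than 40% of the windows of Ear10, Ear1 and Ear2 are shared, against at most 10.6% for Ang, Ang5, Rnase4 and Ang4.

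The libraries held 9921415 to 11942318 counts over genes in KO and 9617086 to 11315986 in WT. Tspo itself had 234, 262 and 200 counts in KO libraries 1 to 3, against 1721, 1766 and 1307 in WT libraries 1 to 3. A pair of WT libraries stood apart. The ribosomal precursor Rn45s made up 11.4% of the counts of WT library 3, while it ranged between 0.224% and 0.427% in the others. In WT library 2 a list of 8 skeletal muscle genes summed to 244 CPM, against 17.8 to 22.9 CPM elsewhere, and a list of 8 fat genes summed to 339 CPM, against 75.6 to 160 CPM. Member values are therefore also given below without each of these libraries.

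4 of the 8 members were expressed in every library, namely Ear1, Ear2, Ang and Rnase4, and none of them passed the test between genotypes. The other 4, Ear10, Ang3, Ang4 and Ang5, failed the filter on low counts and were close to 0 outside KO library 1. In edgeR's quasi-likelihood test the adjusted p was 0.9999 for each of the 4 tested members. Across all 14802 tested genes, 0.00676% passed, which is Tspo alone. At an unadjusted p under 0.05 there were 0 of the 4 members, against 1.88% of all genes, and edgeR's exact test, limma-voom and DESeq2 also gave 0 of these 4. Groups that do not overlap were seen in 0 of the 4 members and in 5.46% of all genes, and every KO library lay above every WT library in 2.28% of all genes. The log2 fold change was positive in 4 of 4 members, against 50.8% of all genes, with a median of 0.18 in the members and 0.0022 over all genes. These 4 are not independent, as Ang and Rnase4 share a start and Ear1 and Ear2 share read-length windows. Without KO library 1 the value was 0.00060 for Ear1, -0.067 for Ear2, 0.12 for Ang and 0.14 for Rnase4. In whole lung, fewer cells of a type and less RNA per cell cannot be told apart.

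Ear2 was the most abundant eosinophil ribonuclease. It had 73.6, 59.6 and 50.9 CPM in KO libraries 1 to 3, against 58.2, 47.3 and 68.3 CPM in WT libraries 1 to 3. KO library 1 was the highest of the 6 and WT library 2 the lowest, and the groups overlapped. The means were 61.4 ± 11.5 CPM in KO and 57.9 ± 10.5 CPM in WT (SD, n = 3 each), with a log2 fold change of 0.09 (SE 0.16, 95% interval -0.26 to 0.44). The two-sided exact permutation test over the libraries gave p = 0.7, where 0.1 is the smallest it can give. Its direction rested on single libraries, as the log2 fold change was -0.067 without KO library 1, -0.041 without WT library 2 and 0.23 without WT library 3.

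Ear1, also known from eosinophil granules, had 20.7, 13.6 and 15.4 CPM in KO libraries 1 to 3. The WT libraries had 14.3, 13.1 and 16.1 CPM. KO library 1 stood above all others, and the other 5 libraries lay close together. The means were 16.6 ± 3.69 CPM in KO and 14.5 ± 1.55 CPM in WT (SD, n = 3 each), and the log2 fold change was 0.20 (SE 0.17, 95% interval -0.19 to 0.58; exact permutation p = 0.6). Without KO library 1 it was 0.00060, without WT library 2 it was 0.12 and without WT library 3 it was 0.28. Ear1 had 0.281, 0.228 and 0.304 counts per Ear2 count in KO libraries 1 to 3, against 0.246, 0.277 and 0.236 in WT libraries 1 to 3. The ratios of the groups overlapped.

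Rnase4 was the most abundant member. It had 480, 507 and 411 CPM in KO libraries 1 to 3, against 414, 364 and 468 CPM in WT libraries 1 to 3. KO library 2 was highest and WT library 2 lowest, while KO library 3 fell below WT libraries 1 and 3. The means were 466 ± 49.8 CPM in KO and 415 ± 52.2 CPM in WT (SD, n = 3 each), with a log2 fold change of 0.17 (SE 0.13, 95% interval -0.12 to 0.45; exact permutation p = 0.3). It was 0.14 without KO library 1, 0.08 without WT library 2 and 0.27 without WT library 3.

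Ang had 58.3, 54.2 and 46.6 CPM in KO libraries 1 to 3, against 42.2, 43.0 and 53.7 CPM in WT libraries 1 to 3. The groups overlapped through WT library 3, which was higher than KO library 3. The means were 53.1 ± 5.92 CPM in KO and 46.3 ± 6.41 CPM in WT (SD, n = 3 each), with a log2 fold change of 0.20 (SE 0.13, 95% interval -0.08 to 0.48; exact permutation p = 0.2). Without WT library 3, the library high in Rn45s, the log2 fold change was 0.32 with an unadjusted p of 0.0282 in edgeR's test, and the adjusted p stayed above 0.05. It was 0.12 without KO library 1 and 0.15 without WT library 2. Ang had 0.122, 0.107 and 0.114 counts per Rnase4 count in KO libraries 1 to 3, against 0.102, 0.118 and 0.115 in WT libraries 1 to 3. The ratios of the groups overlapped.

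**Figure D2:**
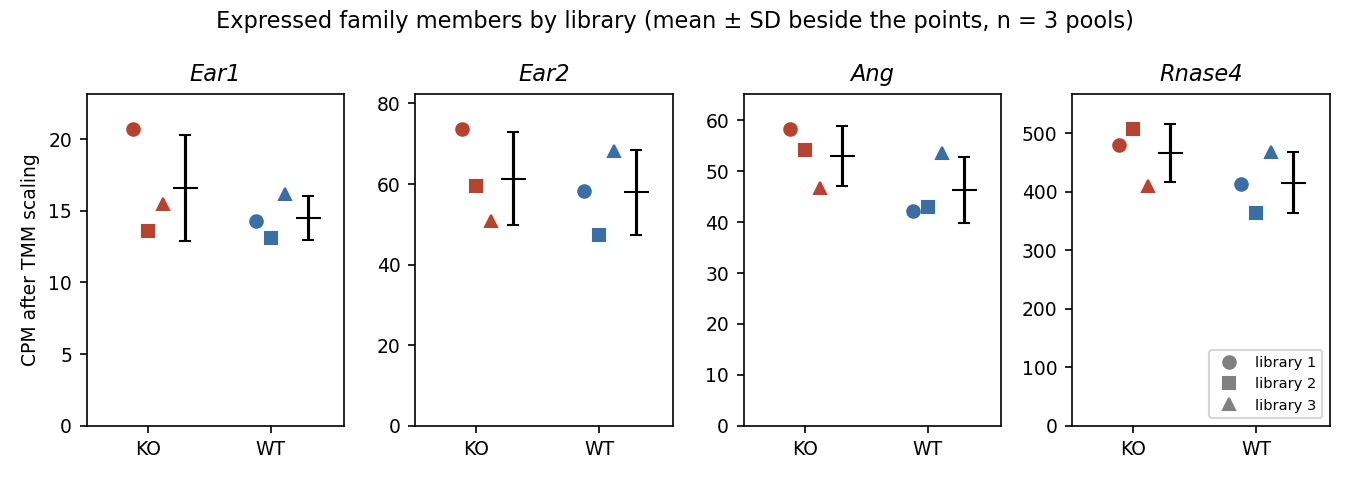
CPM after TMM scaling (vertical axis, from 0) of the 4 expressed members in each KO library (red, left) and WT library (blue, right), with marker shapes for libraries 1 to 3 and the mean ± SD of 3 pools beside the points. In each panel the KO and WT points overlap, for example 50.9 to 73.6 CPM in KO and 47.3 to 68.3 CPM in WT for Ear2.

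The choice of transcript mattered little for Rnase4 and more for Ang. The kept Ang transcript had a total of 3183 counts and the other one 3107. The other Ang transcript had 49.8, 65.1 and 44.1 CPM in KO libraries 1 to 3, against 44.0, 34.4 and 52.5 CPM in WT libraries 1 to 3, and its log2 fold change was 0.29 (SE 0.17). KO library 2 was its highest and WT library 2 its lowest, and the groups again overlapped. The kept Rnase4 transcript had a total of 28278 counts and the other one 28202, and with the other one the log2 fold change was 0.18. With the Ear members summed into one value and the angiogenin-cluster members into another, the log2 fold changes were 0.15 (SE 0.16) and 0.17 (SE 0.13), and neither passed the test.

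The 95% intervals of Ear1, Ear2, Ang and Rnase4 all lay within a 1.5-fold change in either direction, as did those of 75.5% of all tested genes. Changes inside these intervals could not be told from no change with 3 pools per genotype. The biological coefficient of variation was 0.146 for Ear1, 0.141 for Ear2, 0.114 for Ang and 0.119 for Rnase4, against a common value of 0.129.

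**Figure D3:**
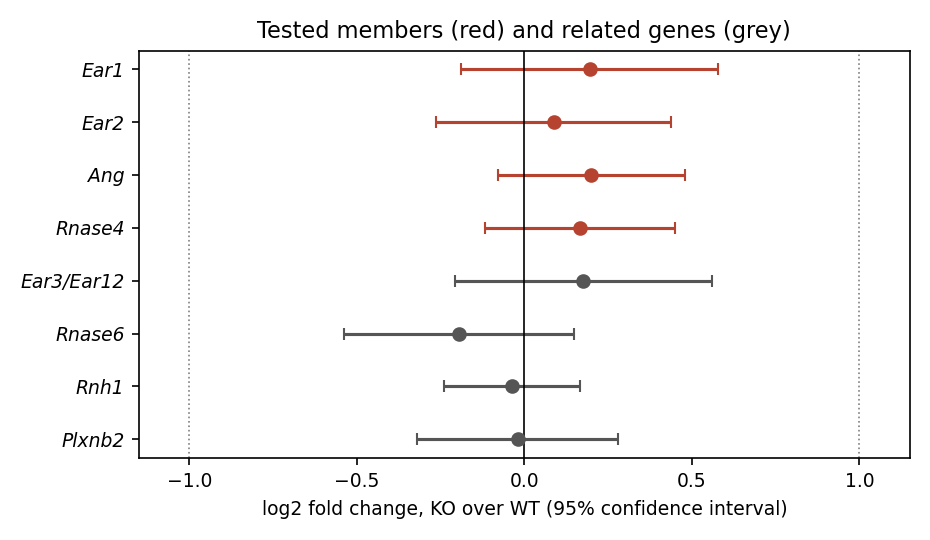
Log2 fold change, KO over WT (horizontal axis, 95% confidence interval from edgeR), of the 4 tested members (red) and of related genes (grey), with dotted lines at a 2-fold change. Every interval drawn crosses 0, from 0.20 for Ear1 and Ang to -0.19 for Rnase6.

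Per kilobase of transcript the levels were ordered Rnase4, Ear2, Ang and Ear1. Rnase4 averaged 319 ± 34.1 CPM per kb in KO and 285 ± 35.7 in WT (SD, n = 3 each). Ear2 averaged 85.4 ± 16.0 CPM per kb in KO and 80.5 ± 14.7 in WT, and Ang 48.5 ± 5.41 in KO and 42.3 ± 5.86 in WT. Ear1 averaged 23.2 ± 5.18 CPM per kb in KO and 20.3 ± 2.17 in WT. Over all 6 libraries the ranges of these neighbours did not overlap, with 249 to 347 CPM per kb for Rnase4, 65.7 to 102 for Ear2, 38.6 to 53.3 for Ang and 18.3 to 29.0 for Ear1. Ear10 reached 12.9 CPM per kb, Ang5 6.2 and Ang4 1.04, each in KO library 1, and Ang3 had no transcript length here. The Ear10 value uses its short matched transcript of 471 bases, and a longer transcript would give a lower value. Together the members took 0.0647%, 0.0642% and 0.0536% of the gene counts in KO libraries 1 to 3, against 0.0555%, 0.0477% and 0.0539% in WT libraries 1 to 3.

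Ear10 had 66 counts in KO library 1, 0 in KO libraries 2 and 3, and 0 in each WT library. The 66 counts have an exact 95% Poisson interval of 51.0 to 84.0, which covers counting error only, and equal 6.10 CPM. At a one-sided 95% limit, which is lower than the upper end of such a two-sided interval, a count of 0 allows up to 3 counts. That is 0.248 to 0.351 CPM in these libraries. In KO library 1 Ear10 had 0.0828 counts per Ear2 count. Of its windows 160 are shared with Ear2, and the part of shared reads in the Ear10 counts was not tested.

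Ang3 and Ang5 together showed the same pattern, with 47 counts in KO library 1 (Poisson interval 34.5 to 62.5), 0 in KO libraries 2 and 3 and 0 in each WT library. Ang5 is an angiogenin relative whose function is less studied. Ang4 had 8 counts in KO library 1 (3.45 to 15.8), 0 in KO libraries 2 and 3, and 0, 1 and 0 in WT libraries 1 to 3. The signal of Ear10, Ang3, Ang5 and Ang4 thus came almost wholly from 1 pool of 3 mice, and the other KO pools gave no sign of it. Ang6, which is not a member, had 5 counts in KO library 1 and 0 in the other 5 libraries.

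**Figure D4:**
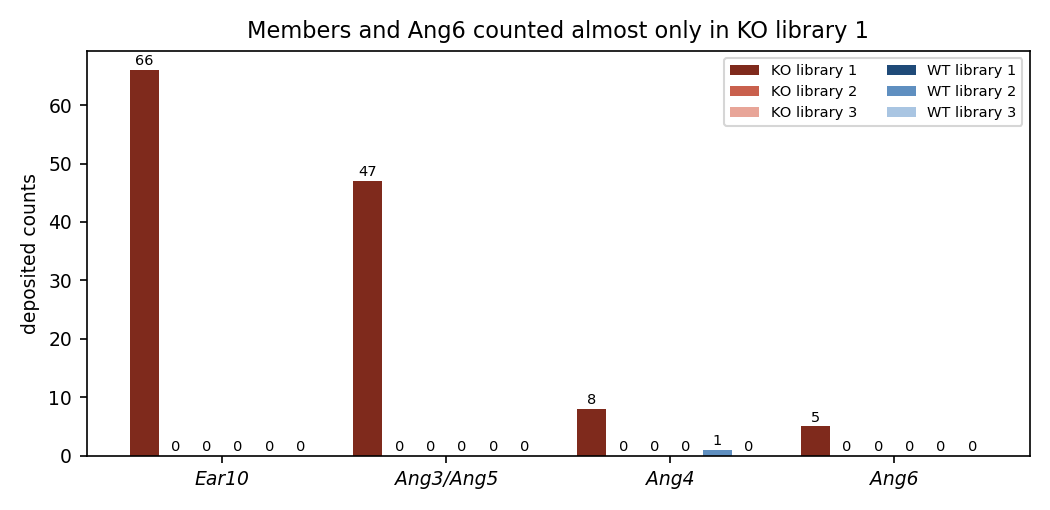
Deposited counts (vertical axis, from 0) of Ear10, Ang3/Ang5, Ang4 and the neighbouring Ang6 in the 3 KO libraries (reds, left) and the 3 WT libraries (blues, right). KO library 1 holds 66, 47, 8 and 5 counts, and the only other count is 1 in WT library 2 for Ang4.

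Ear10 and Ang5 are neighbours. Counted from their 5′ ends, Ear1 and Ear2 start 283 kb apart, and the 3 genes of the table placed between them are Ear10, Ang5 and Ang6. Ear10 starts 104 kb from Ear1, Ang5 33.5 kb from Ear10, Ang6 54.4 kb from Ang5 and Ear2 91.2 kb from Ang6. All 3 were counted in KO library 1 only, whereas Ear1 and Ear2 on either side were counted in every library. Ang4 lies apart from them, beyond Ang and Rnase4. Of all 64529 entries, 5 had at least 15 counts in KO library 1 and no more than 10% of that in the other 5 libraries together, against 0 in KO libraries 2 and 3. In WT the same rule, set after the values were seen, took 0, 80 and 0 entries in libraries 1 to 3. The 5 of KO library 1 were Ear10, Ang3, Ang5, Klk1b22 with 19 counts, and a FANTOM3 cDNA clone with 67 counts.

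The summed markers of eosinophils in KO library 1 lay within the range of the other libraries. Of 10 listed genes 7 were tested and 0 passed, with 3 positive and 4 negative fold changes and a median log2 of -0.07. Their summed level was 174, 176 and 165 CPM in KO libraries 1 to 3, against 184, 150 and 179 CPM in WT libraries 1 to 3, most of it from Hdc, the enzyme that makes histamine, which mast cells and basophils also express. The genes of the granule itself were at or near 0. Eosinophil peroxidase, Epx, had 0 counts in each KO library, against 1, 0 and 0 in WT libraries 1 to 3. The major basic protein gene Prg2 had 1, 5 and 1 counts in KO libraries 1 to 3, against 5, 8 and 6 in WT libraries 1 to 3. Siglec5, which the table uses for Siglec-F, had a log2 fold change of 0.11, and Emr4 had -0.44 at an unadjusted p of 0.0480 in edgeR's test, which did not pass after adjustment. Of the 8 recruitment genes 4 were tested and 0 passed, with a median of 0.12. Il33, which activates lymphoid cells that release eosinophil growth factors, had 0.19, Ccl5 -0.17 and Ccl11, a chemokine that attracts eosinophils, 0.04.

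Alveolar macrophage genes were, like Ear2, highest in sum in KO library 1, but single genes of the list differed. Chi3l3, Cd9 and Car4 were highest in that library, while Marco, Csf2rb and Cidec were lowest in it. Of 20 listed genes 19 were found and tested, and 0 passed, with 14 positive and 5 negative fold changes and a median of 0.09. Their sum was 1983, 1902 and 1538 CPM in KO libraries 1 to 3, against 1651, 1610 and 1833 CPM in WT libraries 1 to 3, with KO library 3 and WT library 2 the lowest. The largest contributor, Chi3l3, a secreted chitinase-like protein, had a log2 fold change of 0.18. Ctsk, a collagen-degrading protease, had 0.37 at an unadjusted p of 0.0101, which did not pass after adjustment. Siglec5 stands in both this and the eosinophil list. The 10 patrolling monocyte genes had 2 positive and 8 negative fold changes, with sums of 1955, 1878 and 2144 CPM in KO libraries 1 to 3, against 1774, 2207 and 1865 CPM in WT libraries 1 to 3. Itgal, an integrin of leukocytes, had -0.21 at an unadjusted p of 0.0427 in edgeR's test, which did not pass after adjustment. The part of these cells in the Ear values was not tested.

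The remaining lists were read in the same way, and 0 genes of any of them passed. Of 9 tested neutrophil genes 2 had positive and 7 negative fold changes, and their sum was 452, 301 and 251 CPM in KO libraries 1 to 3, against 462, 244 and 678 CPM in WT libraries 1 to 3. Padi4 had a log2 fold change of -0.80 at an unadjusted p of 0.000737 and Mmp9 had -0.66 at an unadjusted p of 0.00177 in edgeR's test, and neither passed after adjustment. All 10 alveolar type 2 genes were positive, with a median of 0.13, and 8 of 10 club and goblet cell genes were positive, also with a median of 0.13. Of the Paneth and intestinal list, which bears on Ang4, 3 of 8 genes were tested. Its sum was 857 to 1093 CPM in KO and 795 to 1015 CPM in WT, nearly all from Lyz1, a lysozyme with 847 to 1080 CPM in KO and 790 to 1007 CPM in WT, while Mptx2, Defa24 and Defa17 were at 0 in all libraries. Hepatocyte genes, which bear on Ang because liver makes much angiogenin, summed to 2.56 to 5.30 CPM in KO and 2.62 to 4.45 CPM in WT. The muscle and fat lists, of which 4 and 6 genes were tested, had negative fold changes throughout, with 4 and 4 at an unadjusted p under 0.05, and both sums were highest in WT library 2.

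Among 17 other genes of the RNase A superfamily in the table, only Ear3 with Ear12, which had identical counts, and Rnase6 passed the filter on low counts. Ear3 and Ear12 had 51.7, 34.6 and 31.0 CPM in KO libraries 1 to 3, against 35.5, 30.7 and 37.8 CPM in WT libraries 1 to 3. As with Ear1 and Ear2, KO library 1 was the highest. The log2 fold change was 0.18 (SE 0.17), and the ratio to Ear2 was 0.701, 0.581 and 0.609 in KO libraries 1 to 3, against 0.610, 0.650 and 0.553 in WT libraries 1 to 3. Rnase6, known in human macrophages as an antimicrobial ribonuclease, averaged 9.65 ± 1.06 CPM in KO and 11.1 ± 0.861 CPM in WT (SD, n = 3 each), with a log2 fold change of -0.19 (SE 0.16). Other relatives had few counts. Ear6 had 10, 4 and 2 counts in KO libraries 1 to 3, against 2, 6 and 1 in WT libraries 1 to 3. In the same order, Rnase1 had 5, 4 and 0 counts, against 4, 9 and 0. Ear11 had 3, 0 and 0 counts, against 11, 0 and 0, so most of its counts were in WT library 1. Ear4, Ear14, Ang2, Rnase9, Rnase11 and Rnase13 were at 0 in all libraries.

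The inhibitor and receptor genes were all tested. Rnh1 averaged 133 ± 1.83 CPM in KO and 136 ± 4.99 CPM in WT (SD, n = 3 each), with a log2 fold change of -0.04 (SE 0.09). Plxnb2, a receptor for angiogenin, averaged 285 ± 45.3 CPM in KO and 289 ± 32.9 CPM in WT (SD, n = 3 each), with a log2 fold change of -0.02 (SE 0.14). Tlr2 had -0.10 and Egfr -0.13. All 4 genes of this list had a negative sign and 0 passed the test.

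Likeness to Ear2 and Rnase4 was measured as the root mean square difference of centred log2 CPM over the 6 libraries, among 14794 genes. The genes most like Ear2 were Lcn2, Atp6v0d2, Nfyb, Lyrm9 and Trp53inp1, with differences of 0.0314, 0.0394, 0.0463, 0.0488 and 0.0501, against a median of 0.273 over all genes. Lcn2 is an iron-sequestering protein of innate defence, and Atp6v0d2 encodes a subunit of the proton pump and is in the alveolar macrophage list. Ear1 differed from Ear2 by 0.149 and Ang by 0.131. The genes most like Rnase4 were Sec14l3, Commd1, Ggact, Paics and Dnajb4, with differences of 0.0257, 0.0286, 0.0303, 0.0307 and 0.0317, against a median of 0.227. Ang differed from Rnase4 by 0.0849. These are descriptions of 6 libraries, which share depth and composition, and carry no p.

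**Figure D5:**
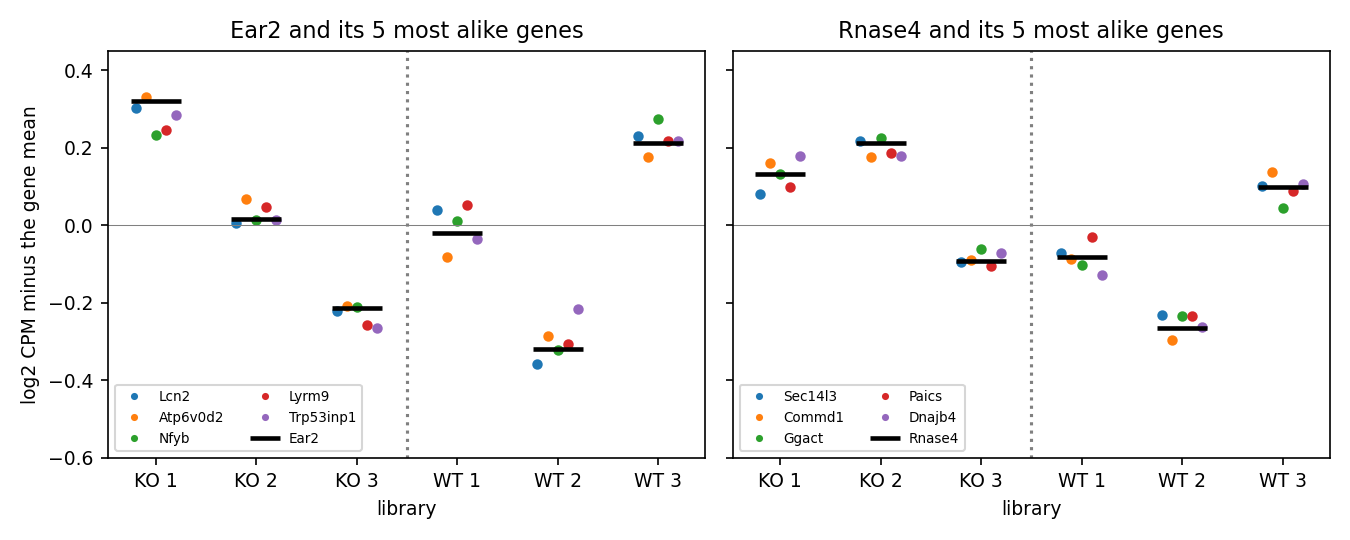
Log2 CPM minus the gene's mean (vertical axis) in the 3 KO libraries (left of the dotted line) and the 3 WT libraries (right), for Ear2 and Rnase4 (black bars) and the 5 genes most like each (coloured points). Ear2 is highest in KO library 1 and lowest in WT library 2, and Rnase4 is highest in KO library 2 and lowest in WT library 2.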

How the data were processed

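Lung RNA of TSPO KO and WT mice (3 libraries each, RNA of 3 mice combined per library) was sequenced as paired 50-base reads and aligned by the authors to mm10 with TopHat. The deposited values are raw counts per transcript, not normalized. Which tool counted the reads, with what strand setting and how shared reads were assigned is not given in the sources used here. For each of 23473 genes the RefSeq transcript with the largest total was kept. FANTOM3 clones were left out of the main test. Date-like names stood in 49 entries, of which 48 were restored by accession.

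Low-count genes were removed with filterByExpr (8671 genes). A total of 15 was asked for, and the CPM of about 10 counts in at least as many libraries as a genotype has. The other genes were scaled by TMM and tested with edgeR 4.0.16 (R 4.3.3) by the quasi-likelihood test. Adjustment was by Benjamini-Hochberg over all genes tested, with a threshold of 0.05. limma 3.58.1 and DESeq2 1.42.0 served in alternatives. The pipeline was tested on simulated data. Members and lists were chosen with earlier results of these data known. The genes named are the 8 members, up to 4 with the largest total per list, and the 5 most like Ear2 and Rnase4. Others were named after their values were seen. Libraries of one genotype differed by more than sampling noise, so none was counted as a copy. Sequences are from RefSeq for GRCm38. No protein sequence was used here.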

Additional observations from a re-analysis of the deposited data

Results flagged for a closer look

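The FANTOM3 cDNA clone fantom3_A730029O17 had 67 counts in KO library 1, against 1 and 1 in KO libraries 2 and 3 and 1, 1 and 0 in WT libraries 1 to 3. Clones were not part of the comparison of genes, and this entry was picked out because its count in 1 library was far above the level of the WT libraries.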

How the results depend on the processing

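Across 20 alternatives per member, Ear1 had log2 fold changes of 0.00060 to 0.32, Ang 0.12 to 0.32 and Rnase4 0.08 to 0.27, all positive. Ear2 ranged from -0.067 to 0.23 and was positive in 18 of 20. Its sign turned without KO replicate 1 (-0.067) and without WT replicate 2 (-0.041). The 20 are not independent, and some could hardly move a fold change. A threshold of 0.1 reused the main fit, and the other transcript of Ang and Rnase4 left the Ear counts as they were. Summed paralogs gave Ear1 and Ear2 a single value, and likewise Ang and Rnase4. The smallest adjusted p of Ear1, Ear2, Ang and Rnase4 was 0.963, and 0 members passed in any alternative. Without the filter and in DESeq2, the low-count members Ear10, Ang3, Ang4 and Ang5 were tested as well, and none passed. The number of genes that passed was 1, except 2 without WT replicate 1. With the replicate number as a block, the log2 fold changes were 0.18 for Ear1, 0.09 for Ear2, 0.20 for Ang and 0.17 for Rnase4, 0 members and 1 gene passed, and no call changed. Deviations of same-numbered libraries correlated at 0.13, -0.23 and -0.27, and not every library correlated best with its own number. The values thus showed no pairing by number, but they cannot tell whether same-numbered pools were handled together. Genes at an unadjusted p under 0.05 numbered 278 by edgeR's quasi-likelihood test, 252 by its exact test, 264 by limma-voom, 160 by DESeq2, 204 without composition scaling, 197 with the block, 481 without the filter and 771 with FANTOM3 clones kept. They numbered 177 without KO replicate 2 and 618 without KO replicate 3. The other transcript of Ang and Rnase4 and the rule on entries held by 1 library were chosen after seeing the data.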

Other observations

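Genes above 2 CPM and more than 2 times the highest other library numbered 8, 0 and 2 in KO libraries 1 to 3, against 9, 116 and 14 in WT libraries 1 to 3. Beside Ang3, Ang5 and Ear10, those of KO library 1 were Baiap2l1, Cytl1, Klra1, Klra15 and Klra22. Baiap2l1, an adaptor of the actin cytoskeleton, had 104 CPM in KO library 1, against 38.5 to 47.5 CPM in the other 5 libraries. Cytl1, a secreted cytokine-like protein, had 35.5 CPM, against 9.26 to 15.6 CPM. The receptors Klra1, Klra15 and Klra22 belong to the Ly49 family of natural killer cells, whose genes are near copies of each other. They had 2.13, 2.68 and 2.03 CPM in KO library 1, against 0.117 to 0.689, 0.433 to 0.984 and 0.173 to 0.787 CPM in the other 5 libraries. These genes were chosen after their values were seen, and no test was run on them.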
